A study of Mus musculus with 36 samples.

Results

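The genes described here encode 10 integrin subunits, namely *Itga1*, *Itga3*, *Itga5*, *Itga6*, *Itga7*, *Itga8*, *Itga11*, *Itgav*, *Itgb1* and *Itgb5*. They were taken by name from the 55536 genes of the count tables, and each matched 1 GENCODE M21 gene identifier. RNA sequencing had been done on 36 libraries of brown pre-adipocytes, a cultured line that stores fat and turns on adipocyte genes when induced. All cells were *Rxra*-/-, came from 2 single-cell clones numbered 48 and 66 in which Cas9 had disrupted the gene of the nuclear receptor RXRα, and carried a retrovirus for either the wild-type protein (*Rxra*WT) or a form in which alanine replaced serine 22 (*Rxra*SA). Each clone and genotype was collected at confluence (day 0, in medium with insulin and T3), after 2 days of induction with dexamethasone, IBMX and indomethacin (day 2), and after further culture with insulin and T3 (day 6), with 3 libraries each. A clone is a single isolate, and all libraries of clone 48 were in pool 1 and all of clone 66 in pool 2, so that clone and pool cannot be told apart. The sample descriptions call the 3 libraries technical replicates while the study's methods speak of independent ones, and p-values measure only the spread between these libraries.

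Integrins are receptors of the cell surface made of 1 α and 1 β chain, which bind proteins of the extracellular matrix outside the cell and connect to the actin cytoskeleton through adaptors such as talin inside it. The β1 chain pairs with most α chains, whereas β5 pairs with αv. Among the α chains described here, α1 and α11 bind collagens, α3, α6 and α7 bind laminins of the basement membrane, and α5, α8 and αv bind proteins with the RGD motif such as fibronectin and vitronectin. Fat cells round up and surround themselves with a basement membrane when they form from fibroblast-like precursors, and a switch from α5 to α6 is a known part of that process in cell culture.

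Total counts per library lay between 11351078 and 24349263 (median 18338726). *Rxra*SA clone 48 day 0 replicate 1 had the lowest total and stood apart with 4.56% of counts on ribosomal RNA-like genes (median 0.0449%). Levels are given as CPM, the counts scaled to a fixed library total, after scaling by the TMM method, or, between genes, as FPKM, which are these CPM per kilobase of the gene length in the count tables. *Rxra* itself lay between 105 and 712 CPM in *Rxra*WT and between 92.6 and 621 CPM in *Rxra*SA libraries, and gene counts cannot show the altered codon. The summed CPM of 6 adipocyte markers ranged from 140 to 246 at day 0, from 3340 to 5650 at day 2 and from 5730 to 10100 at day 6. Of 5 brown adipocyte markers, *Ucp1*, which defines these cells, stayed at or below 0.309 CPM in every library, *Cidea* at or below 1.67 CPM and *Prdm16* at or below 1.13 CPM, while *Ppargc1a* lay between 9.79 and 30 CPM and *Ebf2* between 0.162 and 75.2 CPM. The 5 pre-adipocyte or fibroblast markers summed to 287 to 497 CPM at day 0, 30.7 to 92.7 CPM at day 2 and 41.9 to 158 CPM at day 6. Of these, *Dlk1* and *Thy1* stayed below 0.5 CPM in every library. The 5 leukocyte markers summed to between 2.47 and 12.3 CPM, mostly *Cd68*, but *Ptprc*, *Adgre1* and *Cd3e* as well as the endothelial genes *Cdh5*, *Kdr*, *Tie1* and *Emcn* stayed below 0.5 CPM. The leukocyte gene *Csf1r* reached 1.11 CPM and the endothelial gene *Pecam1* 0.811 CPM. The summed smooth muscle or mural markers fell from between 158 and 473 CPM at day 0 to between 7.32 and 16.2 CPM at day 2, mostly through *Acta2*, and were between 23.2 and 55.2 CPM at day 6, when *Myh11* had risen from a median of 1.51 to 21.4 CPM, and their part in the integrin differences was not tested. In such bulk samples, fewer cells of a type and less RNA per cell cannot be told apart.

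Of the 10 subunits, 8 passed edgeR's filter on low counts and were tested among 16723 genes. *Itga8* and *Itga11* did not pass, with at most 13 and 6 counts in any library. On the FPKM scale *Itgb1* was the most abundant subunit at every day, with medians on days 0, 2 and 6 of 313, 196 and 187 FPKM over 12 libraries each. Its lowest library lay above the highest library of any other subunit. *Itgb5* followed, with medians of 23.5, 10.02 and 22.3 FPKM on these days, and overlapped *Itga6* at days 2 and 6. At day 0 the next in order were *Itga3*, *Itgav* and *Itga5*, with medians of 9.32, 6.42 and 6.23 FPKM and overlapping ranges. At day 6 *Itga6* (median 21.5 FPKM) and *Itga7* (median 7.70 FPKM) had taken their place, whereas *Itgav*, *Itga5*, *Itga1* and *Itga3* had medians between 1.66 and 4.22 FPKM, each overlapping its neighbour in this order. *Itga8* and *Itga11* had the lowest medians on every day, with no library above 0.101 FPKM.

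**Figure D1:**
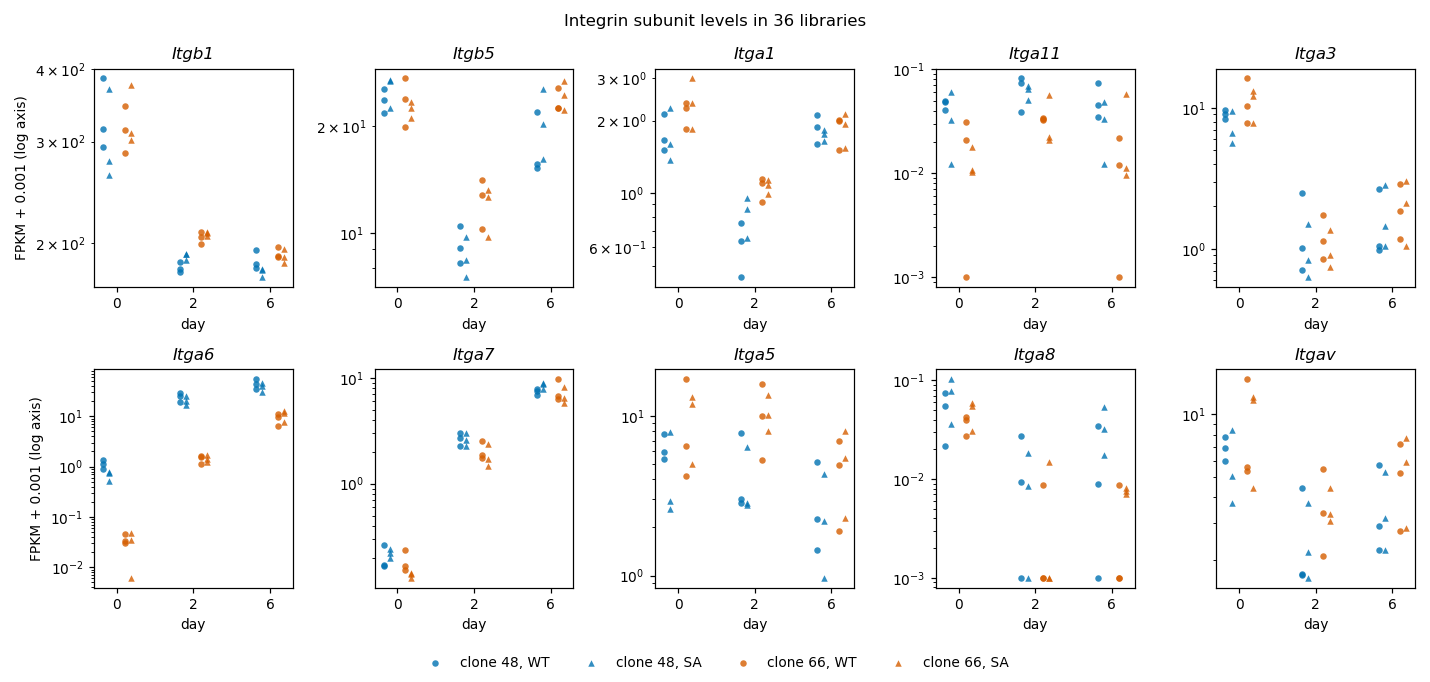
Level of each subunit in every library by day, as FPKM plus 0.001 on a log axis whose range differs between panels. Circles are *Rxra*WT and triangles *Rxra*SA, blue is clone 48 and orange clone 66. *Itga6* of clone 66 lies below *Itga6* of clone 48 on every day, and *Itga7* rises in both clones.

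The 3 day contrasts asked how the subunits changed during differentiation, averaged over genotypes and with the clone as a term of the model. From day 0 to day 2, 2 subunits rose and 5 fell of the 8 tested, where 35.8% of all tested genes were called higher and 37.5% lower by edgeR's quasi-likelihood test at an adjusted p under 0.05. From day 2 to day 6, 5 rose and 1 fell, where 31.9% of all genes were called higher and 30.1% lower. Between day 0 and day 6, 2 were higher and 4 lower, where 32.9% of all genes were called higher and 35.4% lower. The 5 that fell by day 2 and the 5 that rose after it were larger shares of 8 than the shares over all genes, which was not tested. With so many genes called and only 8 subunits, the size of each change carries more than its call. Scaling by library size alone moved the median change over all genes to -0.27 on the log2 scale for day 2 and -0.22 for day 6 against day 0, and lowered the share of calls that were higher from 48.9% to 33.6% and from 48.2% to 34.9%. All members called under TMM kept their direction and their call under that scaling in the day contrasts.

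Of the β subunits, *Itgb1* (chr8:128685654-128733200 of GRCm38, + strand), the common partner of the laminin and collagen receptors, had 1071 to 1573 CPM at day 0 (median 1276), 727 to 855 CPM at day 2 (median 799) and 714 to 806 CPM at day 6 (median 764). Every day 0 library was above every later one, and days 2 and 6 overlapped. *Itgb1* fell by 0.71 on the log2 scale between day 0 and day 2 (SE 0.058, edgeR adjusted p = 4.74e-13) and then differed by -0.07 (SE 0.058, adjusted p = 0.32). *Itgb5* (chr16:33829665-33949338, + strand), the αv partner in vitronectin receptors, had 70.6 to 96.6 CPM at day 0 (median 83.4), 26.8 to 50.04 CPM at day 2 (median 35.6) and 54.0 to 94.7 CPM at day 6 (median 79.3). It thus dipped at day 2 below all libraries of the other days. The log2 fold change was -1.19 from day 0 to day 2 (SE 0.093, adjusted p = 1.37e-13) and 1.03 from day 2 to day 6 (SE 0.093, adjusted p = 8.99e-12), and between day 0 and day 6 it was -0.16 (SE 0.092, adjusted p = 0.12). Per length, *Itgb1* was 9.81 to 17.8 times *Itgb5* at day 0, 14.2 to 25.4 times at day 2 and 6.91 to 12.5 times at day 6.

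The laminin-binding α subunits moved in opposite directions. *Itga6* (chr2:71745616-71858416, + strand) rose most of all members. In clone 48 it had 4.70 to 12.4 CPM at day 0 (median 7.62, n = 6), 150 to 262 CPM at day 2 (median 203) and 273 to 490 CPM at day 6 (median 379). In clone 66 it had 0.0470 to 0.432 CPM at day 0 (median 0.294, 1 to 10 counts per library), 10.4 to 15.6 CPM at day 2 (median 13.4) and 56.7 to 116 CPM at day 6 (median 92.8). Within each clone the 3 days did not overlap, and the day 2 libraries of clone 66 overlapped the day 0 libraries of clone 48. Over both clones the log2 fold change was 4.71 from day 0 to day 2 (SE 0.29, adjusted p = 2.51e-16), 1.90 from day 2 to day 6 (SE 0.25, adjusted p = 4.48e-08) and 6.61 from day 0 to day 6 (SE 0.31, adjusted p = 1.74e-19). Since the 6 day 0 libraries of clone 66 held only 38 counts in sum, their ratio of day 6 to day 0 of 307.5 has a counting interval of 224 to 435 (95%, exact binomial, counting error only), whereas the ratio in clone 48 was 44.9, with an interval of 42.0 to 48.1.

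*Itga7* (chr10:128933818-128958282, + strand), the laminin receptor chain best known from muscle, started low and rose in both clones. It had 1.04 to 2.12 CPM at day 0 (median 1.36, n = 12), 11.96 to 24.6 CPM at day 2 (median 18.8) and 47.4 to 78.5 CPM at day 6 (median 62.3), and no library of a day overlapped with another day. The log2 fold change was 3.65 from day 0 to day 2 (SE 0.12, adjusted p = 3.76e-24) and 1.74 from day 2 to day 6 (SE 0.10, adjusted p = 1.19e-16). Of 4 skeletal muscle markers, *Myod1*, *Myog* and *Ckm* were below 0.5 CPM in every library, whereas *Acta1* (skeletal α-actin) had 1.28 to 4.50 CPM at day 0, 0.187 to 0.952 CPM at day 2 and 5.34 to 11.3 CPM at day 6, and the part of such cells in the *Itga7* levels was not tested. *Itga3* (chr11:95044474-95076801, - strand), in contrast, had 32.2 to 92.3 CPM at day 0 (median 53.2), 3.61 to 14.1 CPM at day 2 (median 5.49) and 5.65 to 17.3 CPM at day 6 (median 9.46). All later libraries were below all day 0 libraries, and days 2 and 6 overlapped. Its log2 fold change was -3.05 from day 0 to day 2 (SE 0.24, adjusted p = 9.47e-14), 0.67 from day 2 to day 6 (SE 0.23, adjusted p = 0.0107) and -2.38 between day 0 and day 6 (SE 0.23, adjusted p = 2.29e-11).

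Of the RGD-binding α subunits, *Itga5* (chr15:103344286-103366763, - strand), the α chain of the classical fibronectin receptor, had 12.9 to 83.5 CPM at day 0 (median 30.7), 13.7 to 78.5 CPM at day 2 (median 35.0) and 4.78 to 39.6 CPM at day 6 (median 16.3). The ranges of all days overlapped. The log2 fold change was -0.10 from day 0 to day 2 (SE 0.29, adjusted p = 0.76), -0.88 from day 2 to day 6 (SE 0.29, adjusted p = 0.00964) and -0.98 between day 0 and day 6 (SE 0.29, adjusted p = 0.00372). *Itgav* (chr2:83724397-83806916, + strand) encodes the chain that pairs with β5 and β1 in vitronectin and fibronectin receptors. It had 40.6 to 158 CPM at day 0 (median 69.01), 17.7 to 58.5 CPM at day 2 (median 34.5) and 24.0 to 82.8 CPM at day 6 (median 45.4), with overlapping ranges. *Itgav* fell by 1.30 on the log2 scale from day 0 to day 2 (SE 0.23, adjusted p = 7.06e-06) and was lower by 0.79 at day 6 than at day 0 (log2 fold change -0.79, SE 0.23, adjusted p = 0.00292). Its difference of 0.51 from day 2 to day 6 did not pass the test (SE 0.23, adjusted p = 0.0535), but passed with each replicate number of each clone as a block in place of the clone (0.49, adjusted p = 0.000305). Between *Itgav* and a transcript on the opposite strand, *Gm13684*, 5.90% of exon bases were shared, and the counting did not use the strand. Shares of other subunits were 5.05% for *Itga8* (*E030013I19Rik*, opposite strand), 3.68% for *Itga1* (*Gm49395*, same strand) and 0.111% for *Itga7* (*Mettl7b*, opposite strand). *Itga8* (chr2:12106632-12301922, - strand), a fibronectin and nephronectin receptor chain, summed to 84 counts in the 12 day 0 libraries, 10 at day 2 and 22 at day 6. In a fit without the filter its log2 fold change was -2.69 from day 0 to day 2 (SE 0.43, adjusted p = 2.84e-07) and -1.91 between day 0 and day 6 (SE 0.38, adjusted p = 2.92e-05).

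Of the collagen-binding subunits, *Itga1* had 121 to 1184 counts per library and *Itga11* at most 6. *Itga1* (chr13:114953096-115101964, - strand), a receptor chain for collagen IV and collagen I, had 25.5 to 55.6 CPM at day 0 (median 37.0), 8.36 to 21.3 CPM at day 2 (median 17.5) and 28.2 to 39.5 CPM at day 6 (median 34.6). Like *Itgb5* it dipped at day 2, where every library lay below all libraries of the other days. The log2 fold change was -1.19 from day 0 to day 2 (SE 0.11, adjusted p = 8.87e-12), 1.07 from day 2 to day 6 (SE 0.11, adjusted p = 2.14e-10) and -0.12 between day 0 and day 6 (SE 0.11, adjusted p = 0.33). *Itga11* (chr9:62677826-62783982, + strand), the fibrillar collagen receptor of fibroblasts, summed to 32, 48 and 32 counts in the 12 libraries of days 0, 2 and 6, and without the filter its log2 fold change from day 0 to day 2 was 0.84 (SE 0.34, adjusted p = 0.0434).

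**Figure D2:**
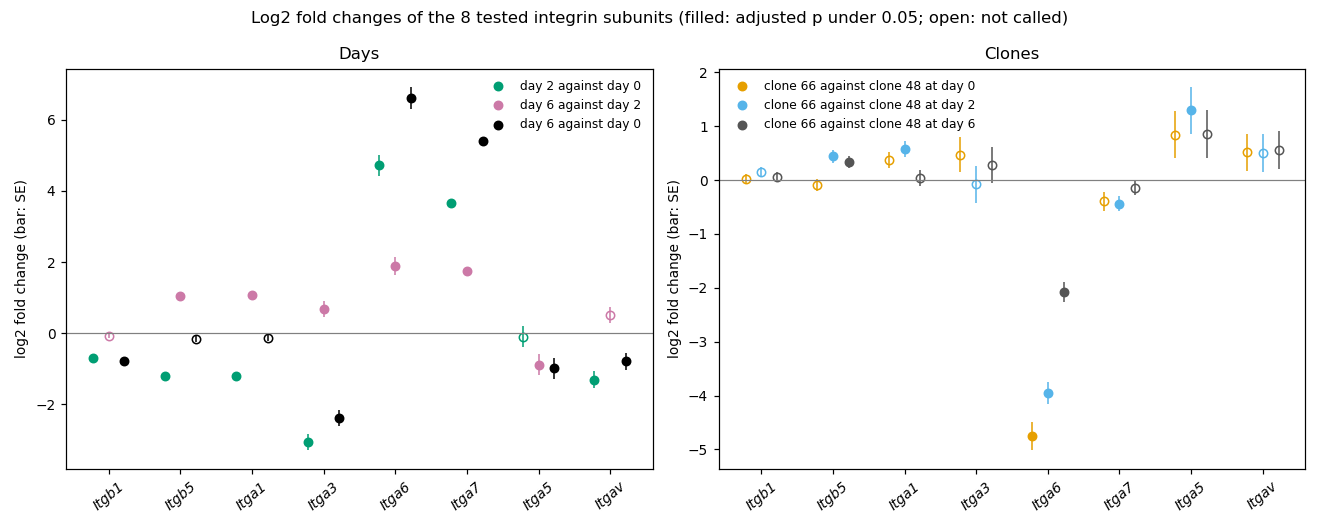
Log2 fold changes of the 8 tested subunits with their SE, between days on the left and between clones on the right. Filled points passed an adjusted p under 0.05 in edgeR's quasi-likelihood test. *Itga6* has the largest change in both panels. *Itga1*, *Itga3* and *Itgb5* turn from lower to higher between the first and the second interval, with both changes called. *Itgav* turns likewise, but its second change was not called.

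Per length, the transcripts of the 8 α subunits were summed in each library. The sum was 14.3 to 49.9 FPKM at day 0 (median 24.0), 12.4 to 46.7 FPKM at day 2 (median 26.6) and 23.3 to 77.6 FPKM at day 6 (median 41.9), and the ranges overlapped. *Itga3*, *Itgav* and *Itga5* made up the day 0 pool, with median shares of 34.9%, 28.2% and 26%. In clone 48 *Itga6* had median shares of 4.07%, 66.6% and 70.1% on days 0, 2 and 6. In clone 66 its median share was 0.130%, 7.61% and 31.1%, and *Itga5* remained the leading α transcript at day 2 with 52.1% (range 42.8% to 57.5%). Both clones thus differed in their α transcripts at day 2, when the share of *Itga5* in clone 48 was 10.6% (range 8.72% to 16.8%). The laminin-binding chains together rose from 6.38 to 10.7 FPKM at day 0 to 40.2 to 64.8 FPKM at day 6 in clone 48, and from 7.97 to 16.4 FPKM to 17.1 to 20.9 FPKM in clone 66. In clone 66 their sum was lower at day 2 (3.85 to 5.18 FPKM), after *Itga3* had fallen and before *Itga6* reached its day 6 level.

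**Figure D3:**
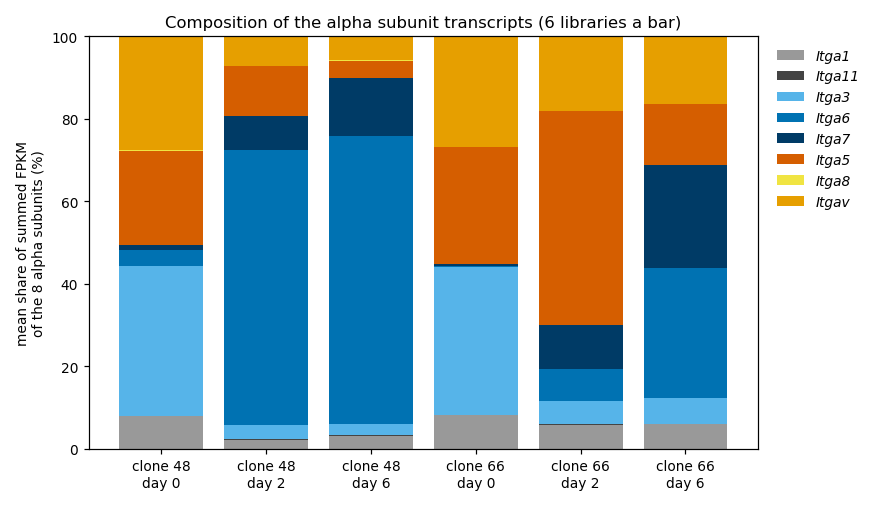
Mean share of each α subunit in the summed FPKM of the 8 α subunits, for each clone and day (6 libraries per bar, both genotypes). The *Itga6* part, in mid blue, fills most of the clone 48 bars at days 2 and 6 and a smaller part of the clone 66 bars.

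The log2 ratio of *Itga6* to *Itga5* counts per kilobase was taken in each library as a measure of the 2 transcripts against each other. From day 0 to day 2 *Itga6* rose by 4.71 on the log2 scale and *Itga5* changed by -0.10. There the ratio mostly repeated the rise of *Itga6* and was no separate test of a switch from α5 to α6. Its mean and SD over 12 libraries were -5.41 ± 3.25 on day 0, -0.13 ± 2.80 on day 2 and 2.64 ± 1.67 on day 6. The ratio was higher by 5.28 at day 2 than at day 0 (two-sided permutation test, adjusted p = 0.00084 over 3 pairs of days), by 2.77 at day 6 than at day 2 (permutation test, adjusted p = 0.00838) and by 8.05 at day 6 than at day 0 (permutation test, p = 2e-05, the smallest that 100000 resamples can give, adjusted p = 6e-05). Within clone 48 it was -2.52 ± 0.59, 2.52 ± 0.49 and 4.14 ± 0.64, and within clone 66 -8.31 ± 1.65, -2.78 ± 0.35 and 1.14 ± 0.57 (mean ± SD, n = 6). The day 0 values of clone 66, and the differences taken from them, rest on 1 to 10 *Itga6* counts per library. The library with 1 count, *Rxra*SA replicate 2, had a log2 ratio of -11.2. No 2 days overlapped within a clone, but *Rxra*WT and *Rxra*SA libraries of a number are paired, so that the tests above count libraries that are not independent. With the genotypes averaged and the days permuted within each clone, each of the 3 differences had p = 0.005 (exact permutation test, the smallest this design allows, adjusted p = 0.005, test added after the data were seen). Same-numbered libraries of different days mostly deviated together as well, and this test still counts the days as independent. Within 1 clone the 3 against 3 averages cannot go below p = 0.1 in an exact permutation test, and each difference had that value. The ratio passed 0 by day 2 in clone 48 and only by day 6 in clone 66.

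**Figure D4:**
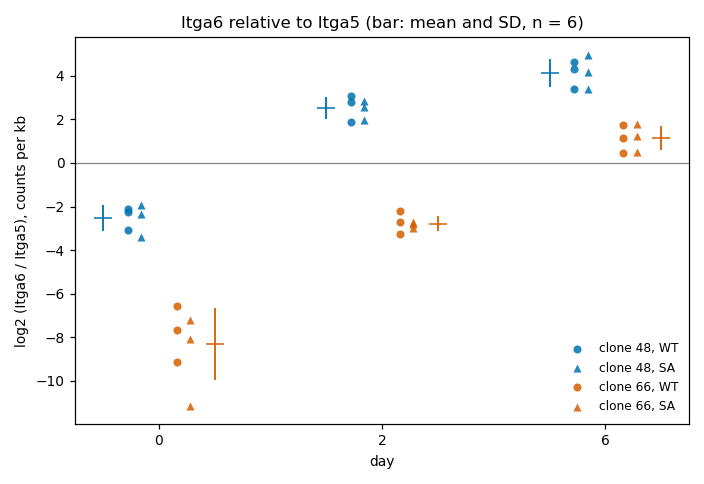
Log2 ratio of *Itga6* to *Itga5* in counts per kilobase in each of the 36 libraries, with the mean and SD of each clone and day beside the points. Clone 66 starts near -8.31, on 1 to 10 *Itga6* counts per library, and clone 48 near -2.52, and both end above 0.

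The genotype contrasts asked whether serine 22 of RXRα altered the subunits. None of the 8 subunits passed the test at day 0, day 2 or day 6, where 0% of all genes were called on each day, and none had an unadjusted p under 0.05 (lowest 0.135). Over all genes, 139, 162 and 125 had an unadjusted p under 0.05 on these days, and DESeq2 called none. No subunit was called on any day under any alternative, the replicate blocks included. At day 0 the log2 fold changes of *Rxra*SA against *Rxra*WT lay between -0.64 for *Itga6* (SE 0.42) and 0.07 for *Itga1* (SE 0.15). At day 2 they lay between -0.40 for *Itga3* (SE 0.33) and 0.20 for *Itga1* (SE 0.16), and at day 6 between -0.04 for *Itga1* (SE 0.15) and 0.14 for *Itgb5* (SE 0.13). *Itga6* was lower in *Rxra*SA than in the *Rxra*WT library of the same clone and replicate number in 5 of 6 pairs at day 0, in 4 of 6 at day 2 and in 3 of 6 at day 6. The pair ratios of *Itga6* were 0.164 to 1.61 at day 0, where clone 66 had few counts, and 0.827 to 1.25 at day 6. *Itgb1* at day 2 was higher in *Rxra*SA in 6 of 6 pairs, but by ratios of only 1.00 to 1.08 (log2 fold change 0.05, SE 0.082, edgeR adjusted p = 1). *Itga8* at day 0 was also higher in 6 of 6 pairs, with ratios of 1.13 to 1.68 on 3 to 13 counts per library (fit without the filter, 0.48, SE 0.41, adjusted p = 1).

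The change over time did not pass the test for a genotype difference in any subunit either, where 0% of all genes were called in each of the 3 pairs of days (144, 153 and 128 genes had an unadjusted p under 0.05, in no case a subunit). The largest such difference was that of *Itga6* between day 0 and day 6, with 0.75 (SE 0.53, adjusted p = 1). Likewise no subunit passed the test for a genotype effect that depended on the clone, where 0% of all genes were called on each day and 283, 214 and 200 genes, none of them a subunit, had an unadjusted p under 0.05. DESeq2 called no subunit in these contrasts. The SE of the subunits in the genotype contrasts, from 0.08 to 0.42, limits which differences these libraries could show.

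Between the clones, *Itga6* was the subunit that differed on all days. In clone 66 against clone 48 its log2 fold change was -4.75 at day 0 (SE 0.27, edgeR adjusted p = 3.76e-14), -3.95 at day 2 (SE 0.20, adjusted p = 1.86e-15) and -2.08 at day 6 (SE 0.18, adjusted p = 5.62e-10), and the clones did not overlap on any day. In mean CPM clone 48 was higher by 28.3 times at day 0, 15.6 times at day 2 and 4.22 times at day 6. The gap narrowed as a ratio only, since mean CPM in clones 48 and 66 was 8.22 and 0.290 at day 0 and 374 and 88.6 at day 6. The day 0 level of clone 66 rests on 38 counts in sum. The change from day 2 to day 6 was larger in clone 66 by 1.87 on the log2 scale (SE 0.25, adjusted p = 9.83e-06). That from day 0 to day 6 was larger by 2.67 (SE 0.33, adjusted p = 3.82e-06), whereas the difference of 0.80 in the first interval did not pass (SE 0.34, adjusted p = 0.18). *Itga6* kept its direction and call in each of these called contrasts under all alternatives, each replicate left out included.

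Of the other subunits none passed at day 0, so that 0 were higher and 1 lower in clone 66, where 12.6% of all genes were called higher and 11.1% lower. At day 2, 3 were higher and 2 lower in clone 66 (background 14.5% higher and 15.5% lower). These were *Itga5* with a log2 fold change of 1.29 (SE 0.44, adjusted p = 0.0259), *Itga1* with 0.58 (SE 0.15, adjusted p = 0.00279) and *Itgb5* with 0.44 (SE 0.12, adjusted p = 0.00439), and *Itga7* with -0.44 (SE 0.14, adjusted p = 0.0141) beside *Itga6*. The clone contrasts of each day counted paired *Rxra*WT and *Rxra*SA libraries as separate, and no replicate block was run for them. At day 6, 1 was higher and 1 lower (background 13.4% higher and 12.8% lower, of calls 51.2% higher, or 41% when scaled by library size alone), with *Itgb5* at 0.33 (SE 0.12, adjusted p = 0.0328) and *Itga6*. The change of a subunit over time differed between clones for *Itgb5* from day 0 to day 2, with 0.54 (SE 0.165, adjusted p = 0.0447), and for *Itga6* in the other pairs of days. With a replicate block, *Itgb5* also passed from day 0 to day 6 (0.44, adjusted p = 0.0285). Without the block this was 1 of 8 subunits in each pair, where 6.84%, 6.18% and 3.85% of all genes were called from day 0 to day 2, from day 2 to day 6 and from day 0 to day 6.

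Of the other clone calls, that of *Itga1* at day 2 held with any replicate left out (0.42 to 0.73), and the rest depended on single replicates. That of *Itga5* at day 2 was lost without clone 48 replicate 1 (1.08, adjusted p = 0.11), without clone 48 replicate 2 (1.07, adjusted p = 0.17), without clone 66 replicate 2 (1.32, adjusted p = 0.0853) or without clone 66 replicate 3 (0.96, adjusted p = 0.13). That of *Itga7* at day 2 was lost without clone 48 replicate 2 (-0.33, adjusted p = 0.13) or clone 66 replicate 3 (-0.32, adjusted p = 0.14), and that of *Itgb5* without clone 66 replicate 2 (0.39, adjusted p = 0.0570) or replicate 3 (0.37, adjusted p = 0.0563). For *Itgb5* at day 6, only leaving out clone 48 replicate 3 or clone 66 replicate 1 kept the call, and the adjusted p was between 0.109 and 0.258 without any of the other 4. The interaction of *Itgb5* was lost without clone 48 replicate 1 or 2, without clone 66 replicate 2 or 3, and without the library that stood apart (0.52, adjusted p = 0.0748).

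*Itga3*, *Itga5* and *Itgav* shared a pattern that days and genotypes did not describe. When both genotypes were averaged, replicate 3 was the highest of the 3 replicate numbers for each of these subunits in all 6 combinations of clone and day. This held for 6.91% of all tested genes. The ratio of replicate 3 to replicate 1 was 1.22 to 2.68 for *Itga3* (median 1.97), 1.75 to 3.93 for *Itga5* (median 2.86) and 1.47 to 2.74 for *Itgav* (median 2.28). It was 0.975 to 1.31 for *Itgb1* (median 0.983) and 0.735 to 1.02 for *Itga7* (median 0.877). *Itgb5* was highest in replicate 3 in 5 of the 6 combinations, with ratios of 0.888 to 1.51 (median 1.23). *Itga6* was highest there in 3 (0.766 to 1.51, median 1.30) and *Itga1* in 2 (0.778 to 1.41, median 1.06). For *Itga5* at day 6 in clone 48 the mean CPM of replicates 1, 2 and 3 was 5.93, 10.97 and 23.3, and in clone 66 it was 10.3, 25.6 and 37.0. The numbers are names and have no order. The mitochondrial share of counts moved with these numbers: averaged over genotypes it was highest in replicate 3 in 5 of the 6 combinations, and at day 6 it was 2.02%, 2.36% and 5.43% for replicates 1, 2 and 3 of clone 48 and 2.42%, 5.88% and 7.84% for those of clone 66. Its part in the result was not tested. What the replicate numbers stand for in the culture or the preparation is not given in the labels.

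**Figure D5:**
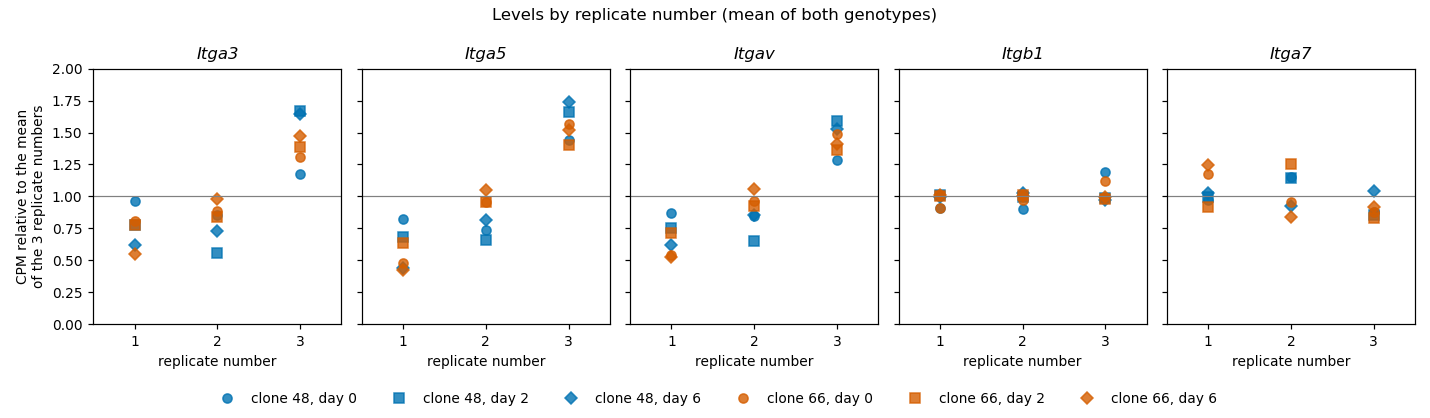
CPM of each replicate number relative to the mean of the 3 numbers, with both genotypes averaged, for each clone (blue 48, orange 66) and day (circle 0, square 2, diamond 6). All 6 points of replicate 3 lie above 1 for *Itga3*, *Itga5* and *Itgav*, whereas *Itgb1* stays near 1 at days 2 and 6.

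Because *Itga3*, *Itga5* and *Itgav* shared this offset between replicate numbers, the 250 bases before their transcription start are shown. They are printed as RefSeq gives them for GRCm38.p6 in the direction of the gene. From day 0 to day 2, *Itga3* and *Itgav* both fell (log2 fold changes -3.05 and -1.30), whereas *Itga5* did not pass the test (-0.10). RefSeq windows matched 8 of the 10 subunits, and *Itga6* and *Itga7* had none. *Itga3* has 2 windows, and the one at the outer end of the annotated gene is printed. Capitals mark matches on either strand to the GC box (GGGCGG, the letters bound by Sp1), which 32.7% of 32851 such promoter windows hold.
*Itga3*, chr11:95076715-95076964, - strand: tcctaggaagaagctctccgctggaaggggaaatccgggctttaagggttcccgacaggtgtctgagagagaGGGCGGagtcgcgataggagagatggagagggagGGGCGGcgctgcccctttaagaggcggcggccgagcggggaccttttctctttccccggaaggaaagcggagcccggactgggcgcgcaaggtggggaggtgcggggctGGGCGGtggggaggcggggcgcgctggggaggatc
*Itga5*, chr15:103366792-103367041, - strand: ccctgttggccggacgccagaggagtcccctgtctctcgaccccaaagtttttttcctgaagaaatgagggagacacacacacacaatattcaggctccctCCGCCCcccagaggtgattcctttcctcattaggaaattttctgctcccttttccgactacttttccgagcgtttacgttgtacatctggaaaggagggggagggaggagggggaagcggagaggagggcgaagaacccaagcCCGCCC
*Itgav*, chr2:83724147-83724396, + strand: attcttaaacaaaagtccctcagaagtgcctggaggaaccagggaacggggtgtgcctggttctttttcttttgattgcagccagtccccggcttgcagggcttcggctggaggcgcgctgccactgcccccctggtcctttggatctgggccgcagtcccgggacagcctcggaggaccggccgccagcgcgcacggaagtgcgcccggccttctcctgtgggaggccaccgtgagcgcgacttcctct
The printed window of *Itga3* held 3 GC boxes, its other window (chr11:95069199-95069448) 1, and that of *Itga5* 2, and *Itgav* held none, so that these letters were not common to the 3 subunits. None of the 9 windows of the 8 subunits held the AP-1 letters TGANTCA, the nuclear receptor half-site AGGTCA or the TATA letters TATAAA, which 6.75%, 14% and 12.4% of all windows hold on either strand. The RXR and PPARγ element (DR1, 2 such half-sites in a row with 1 base between them) is in 0.0335% of all windows. Since it contains the half-site, it was bound to be absent from these 9 windows. The SMAD letters GTCTAGAC, in 0.167% of all windows, were not in them either. At such low shares 9 windows cannot tell whether a site is rarer than elsewhere. The TEAD letters GGAATG, in 12.6% of all windows, occurred in 1 window, 7 bases before the start of *Itgb1*. The percentage of G and C was 67.6, 55.6 and 64.4 in the windows shown, above the median of 52.4 over all windows, and 50.8 in the other *Itga3* window.

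Other genes of the pathway were counted over lists of adhesion genes. Of 17 further integrin subunits 11 were tested, and between day 0 and day 6 2 rose, 6 fell and 3 did not pass, where 32.9% of all genes were called higher and 35.4% lower. Their median log2 fold change was -0.58, against -0.47 for the 8 subunits described here and -0.03 for all genes. The 2 called genes with the largest fitted changes encode α chains known from leukocytes. Genes such as *Itgax* that pass the filter on low counts only through the day when they are high are given by their levels, without a test. They remain in the counts over the lists, *Itgax* among the 6 that fell, although the filter fixed their direction beforehand. *Itgax* went from a median of 0.618 CPM at day 0 to 0 at day 6 (157 counts in all at day 0 and 5 at day 6), and *Itgad* from 9.77 to 0.573 CPM (-4.28, SE 0.25, adjusted p = 3.85e-17), while *Ptprc*, a marker of all leukocytes, was at or below 0.0561 CPM in every library. Of 30 tested adhesion adaptors and kinases, 5 rose and 16 fell over the same days, against the same shares of 32.9% and 35.4% over all genes. *Flna*, which links integrin tails to actin, fell from a median of 1293 to 178 CPM (-2.78, SE 0.15, adjusted p = 1.50e-17). *Tgfb1i1*, a focal adhesion protein also called Hic-5, fell from 7.93 to 1.12 CPM (-2.73, SE 0.23, adjusted p = 1.68e-12).

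Ligands of the receptors are counted against the same 32.9% of all genes higher and 35.4% lower between day 0 and day 6. Of 9 tested laminin chains, 6 rose and 3 fell. The 6 include *Lama4* and *Lamb3*, which passed the filter on low counts only through later days, so that their direction was fixed beforehand. *Lama4*, the α4 chain of adipocyte and vessel laminins, had at most 1 count per library and 3 counts in all at day 0, 0.551 to 7.74 CPM at day 2 and 63.5 to 129 CPM at day 6. *Lamb3*, a chain of laminin 332, had a median of 0.109 CPM at day 0 (0 to 5 counts per library) and 21.5 CPM at day 6. Of 15 tested fibronectin, RGD and other glycoprotein ligands, 4 rose, a share near that of all genes, and 9 fell. The 4 include *Vtn*, which passed the filter only through day 6. *Tnc* (tenascin C) fell from a median of 25.8 to 0.585 CPM (-4.90, SE 0.26, adjusted p = 3.96e-18), and *Vtn* (vitronectin) had 0 to 2 counts per library at day 0 and 16 to 69 counts, or 0.995 to 3.33 CPM, at day 6. *Fn1*, the fibronectin gene and the ligand of α5β1, had a median of 236 CPM at day 0, 102 CPM at day 2 and 480 CPM at day 6, a log2 fold change of 1.31 between day 0 and day 6 (SE 0.32, adjusted p = 0.000514). Of 10 collagen chains, 4 rose and 4 fell, both near the shares of all genes. *Col1a2*, of fibrillar collagen I, fell from a median of 219 to 29.3 CPM (-2.85, SE 0.26, adjusted p = 6.37e-12), and *Col4a1*, of the basement membrane, rose from 540 to 1315 CPM (1.47, SE 0.21, adjusted p = 1.75e-07). No gene of these lists was called between the genotypes on any day.

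The genes most like each subunit were taken as those with the highest Pearson correlation over the 12 means of clone, genotype and day, among 9380 other genes. These means share libraries, days and clones, and many genes move with the day, so that the values only describe likeness. *Itga6* was most like *Aldh1a7* (r = 0.992) and *Mfsd12* (r = 0.985), *Itga7* like *Abca1* (0.997) and *Pigm* (0.995), and *Itga3* like *Frmd4a* (0.992) and *Ctnnal1* (0.992). *Itgb1* was most like *Mxra7* (0.995) and *Pdpn* (0.992), *Itgb5* like *Tmem37* (0.990) and *Tifa* (0.989), and *Itgav* like *Ank* (0.991) and *Pdgfrb* (0.988). *Itga1* was most like *Mxra8* (0.979) and *Kctd17* (0.975), and *Itga5* like *Clasp1* (0.972) and *Acin1* (0.971). The number of genes with r above 0.95 ranged from 11 for *Itga5*, 23 for *Itga1* and 33 for *Itga6* to 243 for *Itgb1* and 268 for *Itga3*, but over the 6 means of genotype and day, with the clones averaged, *Itga6* had 821 such genes and *Itga5*, again the lowest, 386. Among the subunits themselves, *Itga1* and *Itgb5* (r = 0.92), *Itga3* and *Itgb1* (0.94) and *Itga3* and *Itgav* (0.91) were most alike, and *Itga7* and *Itgb1* were most opposed (r = -0.96).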

How the data were processed

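RNA was sequenced from 36 libraries (TruSeq Stranded Total RNA, paired ends). The authors aligned reads with STAR 2.7.0d to GRCm38.p6 and counted them per GENCODE M21 gene with featureCounts 1.6.2 without strand, and the deposited values are raw counts. Here groups were taken from the labels. Genes were filtered with filterByExpr and scaled by TMM, and edgeR 4.0.16 (R 4.3.3) fitted 1 quasi-likelihood model with genotype and day as group and clone as a term. A model with clone-specific groups gave the clone contrasts. Genes were called at a Benjamini-Hochberg adjusted p under 0.05 over all tested genes. DESeq2 1.42.0, other scalings and filters, replicate blocks and each replicate left out were alternatives, and the fit was tested on simulated data. The ratio was tested by permutation (scipy 1.17.1). Same-numbered *Rxra*WT and *Rxra*SA libraries of a clone and day deviated together (r = 0.176 to 0.930 over 18 pairs, all above 0.1), so the numbers pair them. With the genotypes averaged, same-numbered libraries of different days in a clone mostly did so too (r = 0.0625 to 0.893, 16 of 18 above 0.1). Fits without a block, the main ones for days and clones included, count libraries paired in these ways as independent. The subunits and gene lists were chosen with earlier results of these data known. Of each list, the 2 called genes with the largest change between day 0 and day 6 are named, and *Fn1* was added as ligand of *Itga5*. Intervals cover counting error only.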

Additional observations from a re-analysis of the deposited data

Results flagged for a closer look

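In *Rxra*WT clone 66 day 0 replicate 3, *Itga3* (92.3 CPM), *Itga5* (83.5 CPM) and *Itgav* (158 CPM) lay far above the other 5 day 0 *Rxra*WT libraries, past Dixon's critical value of 0.625 for 6 samples. These were 3 of 48 groups of libraries tested, where chance flags about 1 in 20 if groups are independent and alike within. That rate cannot judge these 3 flags, since all fell on the same library and each group pooled both clones. Averaged over genotypes, replicate 3 was also the highest number for these subunits in all 6 combinations of clone and day. The change over time differed between the clones by the interaction test for *Itgb5* from day 0 to day 2 (0.54 on the log2 scale, larger in clone 66) and for *Itga6* from day 2 to day 6 (1.87) and from day 0 to day 6 (2.67).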

How the results depend on the processing

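Of 57 log2 fold changes of subunits, 37 kept their direction and their side of the threshold under the 13 to 16 alternatives run for each, those of *Itga6* among them, as did the *Itga6* to *Itga5* ratio and the counts over the gene lists under those run for them. In clone 66 against clone 48, the number of subunits called higher at day 0 was 1 without a filter on low counts and 1 with DESeq2, and 0 to 2 with a replicate left out. The number called lower at day 0 was 1 to 2 with a replicate left out. At day 2 it was 1 to 4 higher and 1 to 2 lower with a replicate left out, and 1 lower without a filter. At day 6 it was 0 higher when scaled by library size alone and 0 to 4 with a replicate left out, the 4 without clone 48 replicate 3. For the change from day 0 to day 2 between clones it was 0 without a filter and 0 to 1 with a replicate left out. It was 1 to 2 from day 2 to day 6, where *Itga1* was added without clone 48 replicate 1 (-0.76, adjusted p = 0.0358). From day 0 to day 6 it was 1 to 2 with a replicate left out and 2 with the replicate block. Apart from this call of *Itgb5* and that of *Itgav* from day 2 to day 6, the block changed no call of a subunit. *Itgav* from day 2 to day 6 was also called with RLE size factors (0.53, adjusted p = 0.0450), library size alone (0.57, 0.0275), no filter (0.51, 0.0312), DESeq2 (0.53, 0.0349), without clone 48 replicate 3 (0.56, 0.0321) and without clone 66 replicate 1 (0.55, 0.0279). Scaled by library size alone, *Itga1* (-0.31, adjusted p = 0.0119) and *Itgb5* (-0.35, 0.000462) were called between day 0 and day 6, *Itgb1* from day 2 to day 6 turned to 0.0043 and *Itga1* between clones at day 6 to -0.028, *Itgb5* between clones at day 6 lost its call (0.27, 0.0572), and the mean level of *Itgb1* at day 2 was 181.5 FPKM and that of *Itgb5* at day 0 was 26.3 FPKM. Without a filter *Itga7* between clones at day 2 (-0.41, 0.0503) and *Itgb5* at day 6 (0.35, 0.0766) lost theirs. With a replicate left out, uncalled values changed sign for *Itga1* between genotypes at day 0 (-0.024 to 0.12) and, between clones, for *Itgb1* at day 0 (-0.063 to 0.15), *Itga3* at day 2 (-0.38 to 0.52) and day 6 (-0.11 to 0.85) and *Itga1* at day 6 (-0.049 to 0.16). Over all genes, 1 was called between genotypes at day 2 with a block within each day, and for the genotype effect that depended on the clone at day 0, 3 were called with the replicate block and 5 without a filter, none of them a subunit. The cause of these changes was not tested. Depth limits *Itga8*, *Itga11* and the day 0 level of *Itga6* in clone 66.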
